A study of Homo sapiens with 4 samples.

Results

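The genes described here are 35 protein-coding genes of nucleolar ribosome biogenesis, chosen by name and found by exact symbol among the 54628 genes of the deposited count tables. All 35 passed the filter on low counts, as did 15161 genes in all. Their poly(A) transcripts were sequenced in Panc1, a long-established line of human pancreatic ductal carcinoma cells. By the labels, 2 libraries came from cells given HMGB2 siRNA, a small interfering RNA against a DNA-bending chromatin protein, and 2 from cells given scramble siRNA. No other treatment is given for either group, both groups are the same cell line, and the labels do not say that the 2 libraries of a group came from separate cultures. The p-values therefore rest on how much single libraries differ, a spread that may be technical only.

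Ribosomes are put together in the nucleolus. RNA polymerase I copies the ribosomal DNA into a long precursor, small nucleolar ribonucleoproteins (snoRNPs) modify and fold it, and large sets of assembly factors cut it and build the small and the large subunit before export to the cytoplasm. Box C/D snoRNPs methylate ribose at chosen sites, box H/ACA snoRNPs convert uridine to pseudouridine, and the U3 snoRNP organises the small subunit processome. Growth signals and the transcription factor MYC are known to raise many of these genes together, and carcinoma cells commonly have enlarged nucleoli.

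HMGB2 was examined first because it checks the labels, and it went against them. The libraries labelled HMGB2 siRNA held 4021 and 2746 HMGB2 counts, against 346 and 319 in those labelled scramble. The level was 8.43-fold higher under the HMGB2 siRNA label (log2 fold change 3.07 ± 0.08, SE; quasi-likelihood test of edgeR with Benjamini-Hochberg adjustment, adjusted p = 1.54e-33). The headers of the count columns also name the other treatment in all 4 tables. Groups keep their label names below, so "higher" means higher in the libraries labelled HMGB2 siRNA, where HMGB2 counts were high, and "lower" means lower there than in the libraries labelled scramble, where HMGB2 counts were low.

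The libraries labelled HMGB2 siRNA had totals of 31852391 and 20976561 counts, against 21874647 and 20340695 counts in those labelled scramble. Mitochondrial genes took 4.43% and 4.69% of counts under the HMGB2 siRNA label, against 5.25% and 5.36% under the scramble label. Of the duct and epithelial markers, KRT8 had 2010 to 2710 CPM (counts scaled to the library total) over the 4 libraries, whereas EPCAM had 17 to 18.2 CPM and KRT7 2.61 to 4.68 CPM. Of the mesenchymal markers VIM had 2210 to 2440 CPM and CDH2 7.92 to 11.9 CPM, while the acinar, endocrine, fibroblast and endothelial markers examined had 0 to 4 counts in every library. Of the blood markers PTPRC, CD3E and HBB had 0 or 1 count, and CD68 had 101 to 122 CPM. KRT19 was at 713 and 676 CPM in the libraries labelled HMGB2 siRNA, against 484 and 407 CPM under the scramble label, and CDH1 at 19.3 and 20 CPM under the HMGB2 siRNA label, against 8.96 and 8.6 CPM under the scramble label. The part of these differences in the results below was not tested.

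The ribosome biogenesis genes differed little between the groups. Of the 35, 7 were higher, namely NOP58, NOLC1, RCL1, NOC4L, WDR74, UBTF and WDR12, and 1 was lower, NIP7, while 27 did not pass the test (adjusted p under 0.05 over all 15161 genes). That is 22.9% of the members. In the same test 30.8% of all genes were called in either direction, 16.7% higher and 14.1% lower, and among the 9690 genes with a mean CPM at least that of the least abundant member 39.5% were called. The members' log2 fold changes ran from -0.36 to 0.67 with a median of 0.05, against a median of -0.01 over all tested genes. The median shift in either direction was 0.07 on the log2 scale for the members, 0.16 for genes at least as abundant and 0.21 for all tested genes. Changes over 1.5-fold were found in 1 of 35 members, NOP58, and in 634 of the 9690 genes at least as abundant.

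Log2 fold changes were above 0 for 26 members and below 0 for 9. Among all tested genes they were above 0 for 7430 and below for 7731. Among the genes at least as abundant as the lowest member these numbers were 5139 and 4551. Scaling by total counts brought the members' median to 0.00 and upper-quartile scaling to -0.00, while the median of all tested genes moved along to -0.05 and -0.06, so the members stayed above it by about as much as before. In 20 of 35 members the CPM values of the groups did not overlap, against 63.7% of all tested genes. The count of 7 higher members depended on single libraries. It was 2 without HMGB2 siRNA replicate 1, 3 without HMGB2 siRNA replicate 2, 12 without scramble replicate 1 and 5 without scramble replicate 2. DESeq2 called 2 members higher. NOP58, NOLC1 and NIP7 were called under all 13 alternatives to the main analysis, and no other member was.

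**Figure D1:**
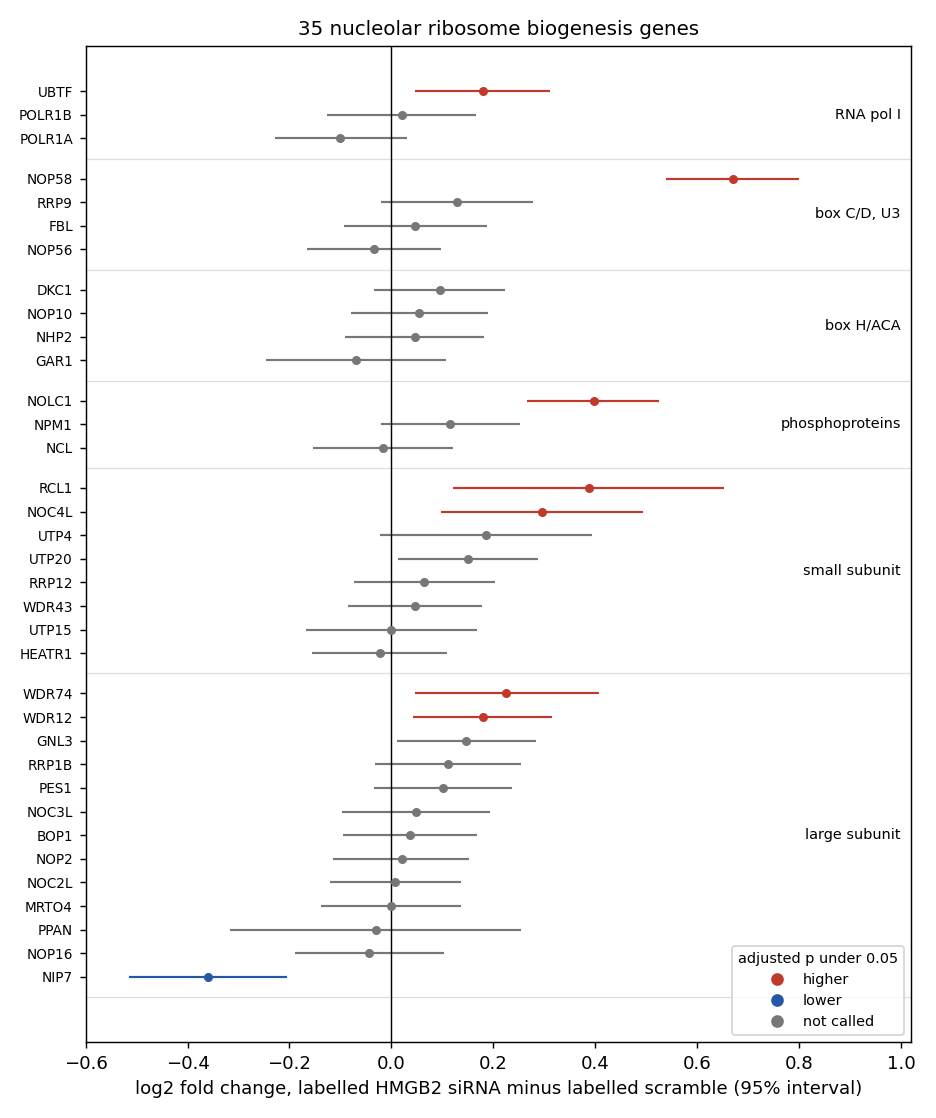
Log2 fold change of each of the 35 genes, libraries labelled HMGB2 siRNA minus libraries labelled scramble, with its 95% interval from the edgeR fit (2 libraries in each group). Genes are grouped by role, red marks the 7 called higher, blue the 1 called lower and grey the 27 not called; NOP58 stands farthest to the right at 0.67 and NIP7 farthest to the left at -0.36.

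Of the 4 box C/D and U3 snoRNP proteins 1 was called, NOP58. NOP58, which with its paralog NOP56 forms the scaffold that holds the methyltransferase fibrillarin on box C/D snoRNAs, had the largest change of any member. NOP58 (chromosome 2, 202265763 to 202303661, plus strand, GRCh38) had 209.7 and 215 CPM in the libraries labelled HMGB2 siRNA, against 135 and 131.5 CPM in the libraries labelled scramble. Both libraries labelled HMGB2 siRNA were far above both labelled scramble, and each group's libraries lay close together. The means were 212.5 ± 3.9 CPM under the HMGB2 siRNA label and 133.5 ± 2.8 CPM under the scramble label (SD, n = 2 each), a 1.59-fold higher level with a 95% interval of 1.45 to 1.74-fold (log2 fold change 0.67 ± 0.07, SE; edgeR, adjusted p = 5.77e-12). Across the 13 alternatives its log2 fold change ran from 0.62 to 0.70 and its adjusted p did not exceed 1.41e-08.

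Its partners were not called. NOP56 had 248 and 269 CPM in the libraries labelled HMGB2 siRNA, against 274 and 254 CPM in those labelled scramble, and the groups overlapped. FBL, which encodes fibrillarin, had 2571 and 2735 CPM under the HMGB2 siRNA label, against 2664 and 2471 CPM under the scramble label, and also overlapped. Their log2 fold changes were -0.03 and 0.05, with 95% intervals of -0.17 to 0.10 and -0.09 to 0.19. RRP9, a protein of the U3 snoRNP, had 64.1 and 61.3 CPM under the HMGB2 siRNA label, against 59.5 and 55.2 CPM under the scramble label, and missed the threshold (log2 fold change 0.13; edgeR, adjusted p = 0.196) unless scramble replicate 1 was left out (adjusted p = 0.0383). SNU13, the small protein that first binds the box C/D motif and no member of the set, had 79.0 and 77.8 CPM in the libraries labelled HMGB2 siRNA, against 94.8 and 87.8 CPM under the scramble label. Its log2 fold change was -0.22 (edgeR, adjusted p = 0.0125), but the call was lost without HMGB2 siRNA replicate 1 (0.158), HMGB2 siRNA replicate 2 (0.208) or scramble replicate 1 (0.0711).

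The paralogs were also set against each other in levels per exon length, in TPM (counts per exon length, scaled to the same total in each library) computed here. The ratio of NOP58 to NOP56 was 0.937 and 0.888 in the libraries labelled HMGB2 siRNA, against 0.547 and 0.573 in the libraries labelled scramble, a difference of 0.70 in log2. NOP58 was thus near parity with NOP56 under the HMGB2 siRNA label and well below it under the scramble label. The ratio of NOP56 to FBL was 0.0498 and 0.0507 under the HMGB2 siRNA label, against 0.0532 and 0.0531 under the scramble label. No test was run on these ratios.

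None of the 4 box H/ACA proteins was called. DKC1, the pseudouridine synthase dyskerin, had 233 and 249.0 CPM in the libraries labelled HMGB2 siRNA, against 229 and 222 CPM under the scramble label, with no overlap but a log2 fold change of only 0.10 (edgeR, adjusted p = 0.282). NOP10, NHP2 and GAR1, its partners in the particle, had log2 fold changes of 0.06, 0.05 and -0.07. Per exon length the TPM ratio of NHP2 to DKC1 was 2 and 1.85 under the HMGB2 siRNA label, against 1.96 and 2.01 under the scramble label, and that of NOP10 to DKC1 was 4.95 and 4.85 under the HMGB2 siRNA label, against 5.21 and 4.86 under the scramble label. The groups overlapped in both of these ratios. They did not overlap in the TPM ratio of GAR1 to DKC1, which was 0.562 and 0.605 under the HMGB2 siRNA label, against 0.639 and 0.666 under the scramble label, a difference of -0.16 in log2 that was not tested. NHP2 shares 41.4% of its exon bases with RMND5B on the other strand. Whether the counting used strand is not given in the sources used here. Reads in the shared bases may have been left unassigned, so the count of NHP2 and its ratio to DKC1 are less certain.

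Among the nucleolar phosphoproteins 1 of 3 was higher. NOLC1, also known as Nopp140, is a chaperone of both snoRNP classes that moves between nucleolus and Cajal bodies. NOLC1 (chromosome 10, 102152370 to 102163870, plus strand) had 394 and 408 CPM in the libraries labelled HMGB2 siRNA, against 314 and 295 CPM in those labelled scramble. The groups were clearly apart, with means of 401.0 ± 9.8 CPM under the HMGB2 siRNA label and 304.5 ± 13.8 CPM under the scramble label (SD, n = 2 each), a 1.32-fold higher level (95% interval 1.2 to 1.44-fold; log2 fold change 0.40 ± 0.06, SE; edgeR, adjusted p = 2.53e-06). Over the alternatives its log2 fold change ran from 0.35 to 0.45 with adjusted p up to 0.00226. The abundant NPM1, a histone and ribosomal protein chaperone that builds the granular part of the nucleolus, had 1495 and 1610 CPM under the HMGB2 siRNA label, against 1483 and 1381 CPM under the scramble label. The groups did not overlap but came close to each other, and the test was not passed (log2 fold change 0.12; edgeR, adjusted p = 0.202; without scramble replicate 1, adjusted p = 0.0129). NCL, nucleolin, had 1075 and 1198 CPM under the HMGB2 siRNA label, against 1185 and 1114 CPM under the scramble label, and overlapped (log2 fold change -0.02).

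**Figure D2:**
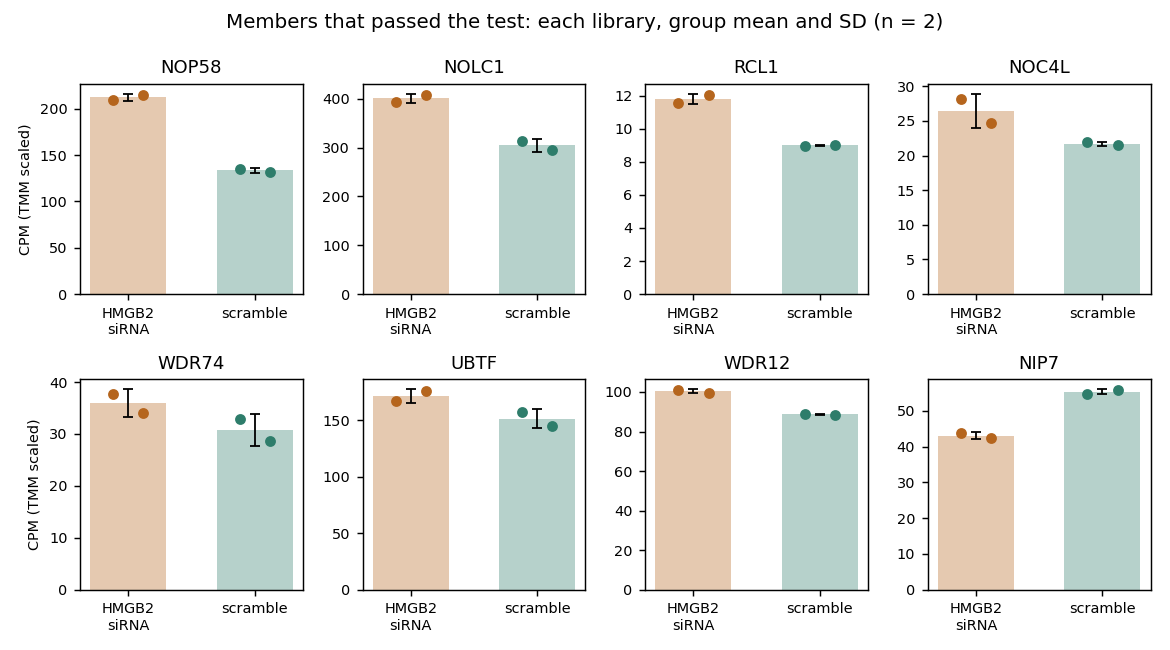
TMM-scaled CPM of the 8 members that passed the test, 1 point per library, with bars for the group mean and error bars for the SD (n = 2 libraries in each group); libraries labelled HMGB2 siRNA stand left of those labelled scramble. In NOP58 and NOLC1 the groups are wide apart, NIP7 is lower at 43.8 and 42.3 CPM under the HMGB2 siRNA label, against 54.8 and 55.8 CPM under the scramble label, and in WDR74 the nearest points of the groups lie close together.

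Of the 3 RNA polymerase I genes, UBTF was higher. It encodes the upstream binding factor, which itself binds ribosomal DNA through high mobility group boxes and keeps it in an open state. UBTF (chromosome 17, 44205040 to 44221304, minus strand) had 167 and 176 CPM in the libraries labelled HMGB2 siRNA, against 157 and 145 CPM under the scramble label. The groups did not overlap, but the difference was small, 1.13-fold (log2 fold change 0.18 ± 0.07, SE; edgeR, adjusted p = 0.0324). The call was lost with total-count or upper-quartile scaling, with DESeq2 (adjusted p = 0.0603), and without HMGB2 siRNA replicate 1 (0.153), HMGB2 siRNA replicate 2 (0.361) or scramble replicate 2 (0.119). POLR1A and POLR1B encode the large catalytic subunits. POLR1A had 162 and 163.5 CPM under the HMGB2 siRNA label, against 176 and 172 CPM under the scramble label, without overlap (log2 fold change -0.10; edgeR, adjusted p = 0.257), and POLR1B had 62.9 and 62.8 CPM under the HMGB2 siRNA label, against 62.3 and 61.7 CPM under the scramble label (log2 fold change 0.02). Per exon length the TPM ratio of POLR1A to POLR1B was 1.67 and 1.69 under the HMGB2 siRNA label, against 1.84 and 1.82 under the scramble label.

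Among the 8 small subunit factors RCL1 and NOC4L were higher and 6 were not called. RCL1, related to RNA cyclases and needed in yeast for an early cut of the precursor, was the least abundant of the members called. RCL1 (chromosome 9, 4792944 to 4861066, plus strand) had 11.58 and 12.04 CPM in the libraries labelled HMGB2 siRNA, against 8.99 and 9.02 CPM under the scramble label. The counts behind these values were 364 and 247 under the HMGB2 siRNA label, against 198 and 188 under the scramble label. Both groups were tight and apart, and the level was 1.31-fold higher with a wide interval of 1.09 to 1.57-fold (edgeR, adjusted p = 0.0205). The call was lost with DESeq2 (adjusted p = 0.103) and without HMGB2 siRNA replicate 1 (0.11) or HMGB2 siRNA replicate 2 (0.147).

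NOC4L, whose yeast counterpart acts in the small subunit processome together with Nop14, had 28.2 and 24.8 CPM in the libraries labelled HMGB2 siRNA, against 21.9 and 21.4 CPM in those labelled scramble. HMGB2 siRNA replicate 1 was the highest, and the groups did not overlap (1.23-fold, 95% interval 1.07 to 1.41-fold; edgeR, adjusted p = 0.0179). Without that replicate the adjusted p was 0.431, and with DESeq2 and with total-count or upper-quartile scaling it was 0.086, 0.06 and 0.053. NOP14 itself, outside the set, had 70.3 and 69.4 CPM under the HMGB2 siRNA label, against 59.4 and 56.4 CPM under the scramble label (log2 fold change 0.27; edgeR, adjusted p = 0.00307; 0.0992 without HMGB2 siRNA replicate 1 and 0.0569 without HMGB2 siRNA replicate 2). NOP14 shares 10.1% of its exon bases with NOP14-AS1 on the other strand.

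The remaining small subunit genes lay between log2 fold changes of -0.02 and 0.19. UTP4, UTP15, WDR43 and HEATR1 belong to the subcomplex that binds the nascent precursor first, and their log2 fold changes were 0.19, 0.00, 0.05 and -0.02. UTP4, at 20.4 and 21.5 CPM under the HMGB2 siRNA label, against 19.1 and 17.7 CPM under the scramble label, had the largest of these but did not pass the test (edgeR, adjusted p = 0.182). UTP20, a very large scaffold protein, had 100.8 and 106 CPM under the HMGB2 siRNA label, against 95.9 and 89.8 CPM under the scramble label, and RRP12, which acts in precursor export, had 130.1 and 132 CPM under the HMGB2 siRNA label, against 134 and 117 CPM under the scramble label. Both missed the threshold (adjusted p = 0.0895 and 0.52), and both passed it without scramble replicate 1 (adjusted p = 0.0106 and 0.0238).

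Of the 13 large subunit factors, 2 were higher, 1 was lower and 10 were not called. NIP7, which binds the precursor during large subunit maturation, was the only member that was lower. NIP7 (chromosome 16, 69339772 to 69343106, plus strand) had 43.8 and 42.3 CPM in the libraries labelled HMGB2 siRNA, against 54.8 and 55.8 CPM in those labelled scramble. Both libraries labelled HMGB2 siRNA were below both labelled scramble. Its means were 43.0 ± 1.1 CPM under the HMGB2 siRNA label and 55.3 ± 0.7 CPM under the scramble label (SD, n = 2 each). The level under the HMGB2 siRNA label was 0.78 of that under the scramble label (95% interval 0.7 to 0.868, log2 fold change -0.36 ± 0.08, SE, edgeR, adjusted p = 0.000247). NIP7 was lower in all 13 alternatives, with log2 fold changes of -0.41 to -0.33.

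PES1, BOP1 and WDR12 form the PeBoW complex, which is needed to process the precursor of the large subunit RNAs. WDR12 had 101.0 and 99.6 CPM in the libraries labelled HMGB2 siRNA, against 88.8 and 88.5 CPM under the scramble label, a 1.13-fold higher level without overlap (edgeR, adjusted p = 0.0387). PES1 had 124 and 133 CPM under the HMGB2 siRNA label, against 123 and 116 CPM under the scramble label (log2 fold change 0.10), and BOP1 had 180.1 and 169.8 CPM under the HMGB2 siRNA label, against 174 and 167 CPM under the scramble label (log2 fold change 0.04). The 3 subunits thus differed little in their changes, and the TPM ratio of WDR12 to PES1 overlapped between the groups at 0.287 and 0.264 under the HMGB2 siRNA label, against 0.253 and 0.269 under the scramble label. The WDR12 call was kept in only 6 of 13 alternatives. Among those that lost it were total-count scaling, upper-quartile scaling and DESeq2 (adjusted p = 0.0797). The call was also lost without HMGB2 siRNA replicate 1 or HMGB2 siRNA replicate 2, and with the replicate number as a block (edgeR, adjusted p = 0.0594).

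WDR74, which works with the ATPase NVL on early large subunit particles, had 37.8 and 34 CPM in the libraries labelled HMGB2 siRNA, against 32.9 and 28.6 CPM under the scramble label. The groups were next to each other without overlap, the level was 1.17-fold higher, and the test was just passed (edgeR, adjusted p = 0.0496). It was called in only 4 of 13 alternatives, and the adjusted p was 0.546 without HMGB2 siRNA replicate 1, 0.0831 without HMGB2 siRNA replicate 2, 0.27 without scramble replicate 2 and 0.0583 with the replicate block. WDR74 also overlaps RNU2-2P on the same strand over 5.53% of its exon bases.

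The 10 large subunit genes that were not called had log2 fold changes from -0.04 for NOP16 to 0.15 for GNL3. GNL3, the GTPase nucleostemin, had 117 and 117 CPM under the HMGB2 siRNA label, against 110.2 and 100.9 CPM under the scramble label (edgeR, adjusted p = 0.0938, and 0.00448 without scramble replicate 1). RRP1B, at 0.11, missed the threshold without overlap of the groups. NOP2, a methyltransferase for the large subunit RNA, had 109 and 111.5 CPM under the HMGB2 siRNA label, against 109.7 and 108 CPM under the scramble label (log2 fold change 0.02). NOC2L, at 0.01 with a 95% interval of -0.12 to 0.14, and MRTO4, at -0.00, were the flattest, and NOC3L was at 0.05. PPAN, the least abundant member at 8.97 and 8.38 CPM under the HMGB2 siRNA label, against 8.72 and 9.07 CPM under the scramble label, had an interval of -0.32 to 0.26. It shares 54.3% of its exon bases with the read-through gene PPAN-P2RY11, which had 0 counts in all 4 libraries, so the counting may have left shared reads unassigned. HEATR1 shares 24.8% of its exon bases with LGALS8 and NOC2L 13.5% with SAMD11, both on the other strand. FBL, BOP1, NOC4L and UTP4 are each listed on 1 alternative sequence of the assembly as well, and NPM1 is known to have many processed pseudogenes, so reads that fit several places make these counts less certain.

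For most genes without a call the intervals from the fit were narrow. They rest on the spread between single libraries, which may be technical only, and they do not cover the choice of scaling. Of the 27, the 95% interval of the fold change lay within 1.2-fold in either direction for 22 and within 1.5-fold for all 27. The 5 outside 1.2-fold were RRP9, GNL3, PPAN, UTP20 and UTP4, and the widest reach upward was that of UTP4, to a log2 fold change of 0.39. A miss of the threshold is not evidence of equality.

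Levels per exon length spanned a wide range, with a median of 88.2 TPM for the members and 11.7 TPM for all tested genes. FBL, NPM1 and NCL led the set. FBL had 5483 and 5747 TPM in the libraries labelled HMGB2 siRNA, against 5630 and 5415 TPM under the scramble label, rank 17 among all tested genes. NPM1 had 1678 and 1781 TPM under the HMGB2 siRNA label, against 1649 and 1593 TPM under the scramble label, and rank 74. NCL followed at a mean of 709 TPM and NOP10 at 641 TPM, while RCL1 at 11.6 TPM and PPAN at 8.47 TPM were lowest. The value of PPAN may be too low, because reads in exon bases shared with PPAN-P2RY11 may have been left unassigned. Together the 35 genes took 0.878% and 0.919% of all counts in the libraries labelled HMGB2 siRNA, against 0.9% and 0.862% in those labelled scramble, and the groups overlapped. In bulk RNA a change in the number of cells of a kind and a change in RNA per cell cannot be told apart.

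**Figure D3:**
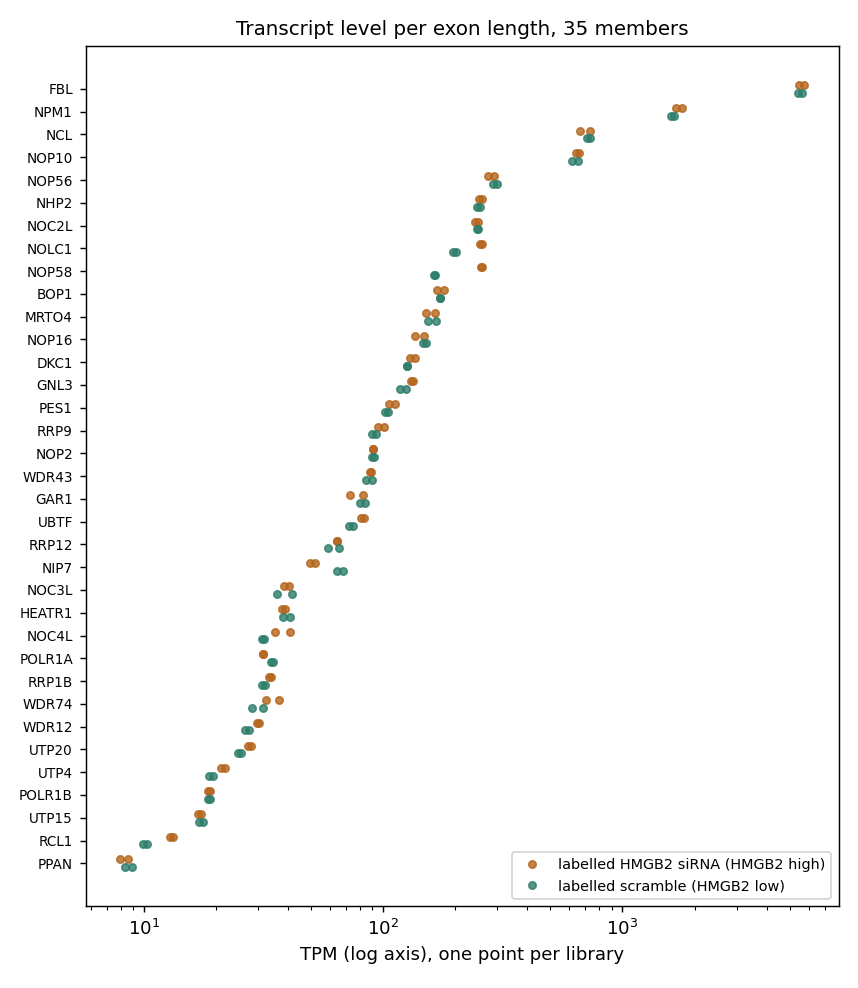
TPM of each of the 35 genes on a log axis, 1 point per library, ordered by mean level, with libraries labelled HMGB2 siRNA above those labelled scramble in each row. FBL leads near 5569 TPM and PPAN is lowest near 8.47 TPM; the groups are visibly apart in NOP58, NOLC1, NIP7 and RCL1.

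The TPM level of FBL stood above that of NPM1, the next in order, in every library. FBL lies on chromosome 19, and many genes near it, mostly at lower coordinates, also had high levels. This neighbourhood was examined after the levels had been seen. The 29 tested genes that start within 500 kb of FBL had a median of 74.2 TPM, against a range of 4.33 to 52.9 TPM and a median of 17.8 TPM for the same quantity around the 30 other members with at least 5 tested neighbours. The highest of these neighbours were RPS16 with a mean of 33952 TPM, PSMC4 with 3726 TPM, PAF1 with 1520 TPM and SUPT5H with 1307 TPM. Most neighbours at lower coordinates than FBL were above the median of 74.2 TPM. At higher coordinates only PSMC4, AKT2 (782 TPM) and MAP3K10 (244 TPM) were above it. DNA copy number was not measured here and its part was not tested. The neighbours' median log2 fold change was -0.08, beside 0.05 for FBL.

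**Figure D4:**
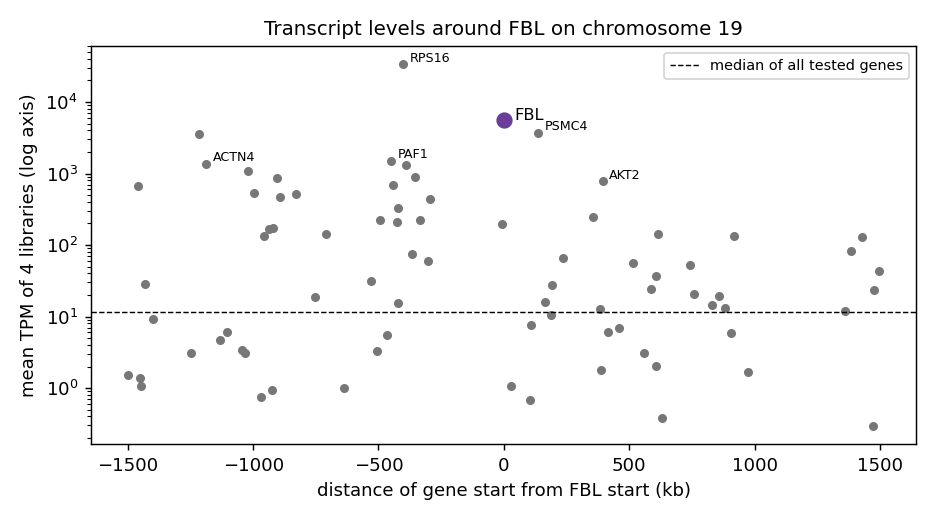
Mean TPM over the 4 libraries (log axis) of tested genes by the distance of their start from the start of FBL in kb; the dashed line is the median of all tested genes, 11.7 TPM. FBL at 5569 TPM has other genes with high levels near it, among them RPS16 and PAF1 at lower coordinates and PSMC4 at higher. Many of the nearest genes at higher coordinates are near or below the dashed line.

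The promoters of these genes were searched for 6 short motifs on both strands, in windows from 250 bases before to 50 bases after the start in RefSeq (GRCh38.p14). Windows were at hand for 30 of the 35, and NOP58, NOLC1, BOP1, RRP12 and RRP1B had none. The canonical E-box CACGTG, the motif bound by MYC with MAX and by related factors, was present in 11 of 30 windows (36.7%), against 9.99% of 11136 tested genes and 7.43% of all 27305 promoters. In all 11 it began within 50 bases of the annotated start, as in 36.7% of members and 3.98% of tested genes. These sites are shown because they sit at nearly the same place in a good part of the set. Genes and motifs were chosen with earlier results of these data known. Whether the choice of genes favoured this motif was not tested. Each line gives 30 bases, 5′ to 3′ on the gene's strand, with the E-box in capitals.

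FBL (chr19:39846356-39846385, minus strand, E-box starting at base 7 of the transcript): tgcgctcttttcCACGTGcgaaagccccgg
NOP2 (chr12:6568242-6568271, minus strand, base 36): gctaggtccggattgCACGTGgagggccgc
PES1 (chr22:30591880-30591909, minus strand, base 14): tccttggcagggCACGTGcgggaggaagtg
WDR43 (chr2:28894658-28894687, plus strand, base 4): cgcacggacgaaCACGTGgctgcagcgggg
MRTO4 (chr1:19251807-19251836, plus strand, base 15): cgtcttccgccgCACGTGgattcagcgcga
RCL1 (chr9:4792936-4792965, plus strand, base 5): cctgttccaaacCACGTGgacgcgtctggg
NOC3L (chr10:94362903-94362932, minus strand, base 20): tagggacttcggCACGTGtgtcattccccg
RRP9 (chr3:51941892-51941921, minus strand, base -5): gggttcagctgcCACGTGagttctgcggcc
UTP20 (chr12:101280083-101280112, plus strand, base -10): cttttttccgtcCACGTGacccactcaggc
UTP4 (chr16:69132621-69132650, plus strand, base -16): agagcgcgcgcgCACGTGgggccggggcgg
NOP10 (chr15:34343130-34343159, minus strand, base -11): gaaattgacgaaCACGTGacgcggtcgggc

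The E-box thus began after the annotated start in 7 of these genes and before it in 4. The genes that hold it had small differences between the groups. Their median log2 fold change was 0.06, with RCL1 the only gene called. That of the 19 members whose window holds none was 0.01, with 4 called higher (WDR12, WDR74, NOC4L and UBTF) and NIP7 called lower. Of all tested genes 30.8% were called, and 39.5% of those at least as abundant as the lowest member. Calls were not compared between these small sets by a test. Among all tested genes the medians were 0.02 with an E-box near the start and -0.00 without one. A match is a description of letters and says nothing of whether a factor binds there.

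**Figure D5:**
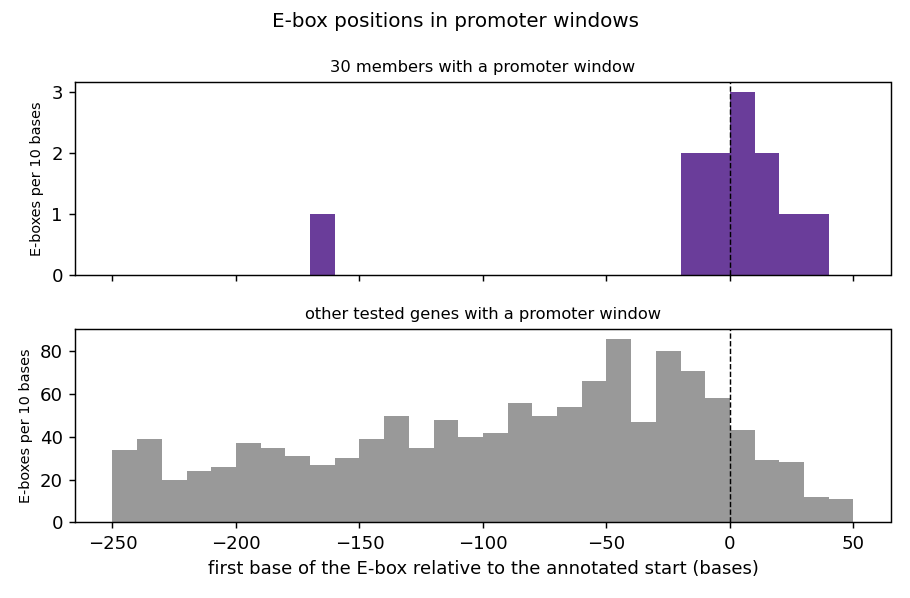
Number of E-boxes (CACGTG) by position in 10-base steps relative to the annotated start, for the 30 members with a promoter window (top) and the other tested genes (bottom); the dashed line marks the start. The members' E-boxes gather around the start, between base -16 and base 36 in 11 genes, 1 of which has another farther upstream, while those of other genes spread over the whole window.

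The other motifs were less distinct. The ETS core CCGGAAG was in 36.7% of the members' windows, against 19.1% of tested genes, and 5 of its 11 genes (FBL, RRP9, UTP4, NOC3L and NOP10) also held the E-box. CCAAT, the core of the NF-Y site, was in 43.3% against 36.1%. The NRF1 part GCATGCGC was found in DKC1, the palindrome part TCTCGCGAG in NPM1 and the YY1 part AAGATGGCG in NIP7, each in 3.33% of members against 5.54%, 1.34% and 3.79% of tested genes. Median GC content was 65.3% in the members' windows and 65.7% in those of tested genes.

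The 3′ untranslated regions (3′UTR) were searched on the transcript strand for GACAAAG, for its companion ATAGTAA and for the overlapping word AATAGTA. These heptamers went with higher fold changes in an earlier look at these same data, so that their presence is no independent evidence. At least 1 of them was in 10 of 35 members (28.6%), against 25.9% of 12178 tested genes with a 3′UTR in GENCODE. GACAAAG was in 22.9% of members and 11.8% of tested genes, whereas ATAGTAA was in 5.71% against 12% and AATAGTA in 8.57% against 12.2%. The members called higher under every alternative each held one, NOP58 in a 3′UTR of only 230 bases and NOLC1 in one of 1602 bases, and these sites are shown in 30 bases with the heptamer in capitals (GRCh38).

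NOP58 (chr2:202303531-202303560, plus strand): aggttcagtaaGACAAAGtgatttatcatc
NOLC1 (chr10:102162651-102162680, plus strand): ttgcccaaaacATAGTAAagggtcacgtgt

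WDR12 and RCL1 also held a word and were higher. The remaining 6 carriers, NPM1, NOP2, POLR1A, UTP4, UTP15 and NOC3L, were not called. The carriers' log2 fold changes had a median of 0.15 (10 genes), and those of the other 25 members a median of 0.05. Of these 25, 3 were higher (WDR74, NOC4L and UBTF) and NIP7 was lower. Of all tested genes 30.8% were called, and 39.5% of those at least as abundant as the lowest member. All tested genes with a 3′UTR had medians of 0.09 with a word and -0.01 without. The words were chosen for such a difference, so the contrast among members is no separate evidence. The carriers' 3′UTRs ran from 230 bases (NOP58) to 7207 bases (POLR1A). Those of the other members ran from 40 bases (NOC4L) to 2696 bases (RRP1B). Carriers and other members were not matched for this length, and the part of these words in the values was not tested.

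The wider pathway was represented by 140 further genes, of which 136 were tested. Of these, 26 were higher and 7 lower, 24.3% in all, beside 30.8% of all tested genes and 39.5% of those at least as abundant as the lowest member. Their log2 fold changes had a median of 0.05 and a median shift of 0.12 in either direction. Without HMGB2 siRNA replicate 1 or HMGB2 siRNA replicate 2 the higher ones numbered 13, and without scramble replicate 1 they numbered 42. The lower ones numbered 3 and 2 without those HMGB2 siRNA replicates, and 12 and 13 without scramble replicates 1 and 2. Changes over 1.5-fold were found in 4 of the 136, beside 1 of the 35 members.

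Late maturation of the small subunit, a small list, had 5 higher and 1 lower of 13 genes, 46.2%. That stands beside 30.8% of all tested genes and 39.5% of those at least as abundant as the lowest member. No test was run against either share. In the other wider lists the shares called were 33.3% (RNA polymerase I), 26.5% (large subunit), 22.2% (snoRNP assembly), 21.4% (RNA exosome) and 12.8% (small subunit processome). RIOK3, an atypical kinase bound to small subunit precursors, had 76.9 and 72.9 CPM in the libraries labelled HMGB2 siRNA, against 35.3 and 40.3 CPM under the scramble label, a 1.99-fold higher level (edgeR, adjusted p = 9.06e-15). BUD23, a methyltransferase for the small subunit RNA, had 122 and 117 CPM under the HMGB2 siRNA label, against 88.4 and 83.3 CPM under the scramble label (log2 fold change 0.48; edgeR, adjusted p = 1.65e-07). Both were well apart between the groups.

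Among 49 other large subunit genes 12 were higher and 1 lower. SDAD1 had 41.3 and 42.1 CPM under the HMGB2 siRNA label, against 26 and 27.3 CPM under the scramble label, and ZNF593 had 22.4 and 24.5 CPM under the HMGB2 siRNA label, against 15.7 and 13.5 CPM under the scramble label (log2 fold changes 0.65 and 0.68; edgeR, adjusted p = 4.44e-08 and 1.93e-06). Both were apart between the groups, and ZNF593 shares 56.9% of its exon bases with ZNF593OS on the other strand. Of 12 further RNA polymerase I genes 3 were higher and 1 lower, with TCOF1, the nucleolar protein treacle, at 176 and 189 CPM under the HMGB2 siRNA label, against 145 and 136 CPM under the scramble label (log2 fold change 0.38; edgeR, adjusted p = 1.02e-05). POLR1F, a polymerase subunit, had the same log2 fold change of 0.38 (adjusted p = 0.000168, and 0.0548 without HMGB2 siRNA replicate 1).

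Among 9 genes of snoRNP assembly, RUVBL2, an ATPase that helps to build box C/D particles, had 210.4 and 212 CPM under the HMGB2 siRNA label, against 167 and 151 CPM under the scramble label, and was higher (log2 fold change 0.41; edgeR, adjusted p = 2.3e-06). ZNHIT6, an assembly factor of the same particles, had 98.5 and 106 CPM under the HMGB2 siRNA label, against 127 and 137 CPM under the scramble label, and was lower (log2 fold change -0.36; adjusted p = 2.95e-05). These 2 genes of box C/D assembly thus moved in opposite directions. Of 14 genes of the RNA exosome, which trims precursors, 2 were higher and 1 lower, with EXOSC8 and EXOSC9 at log2 fold changes of 0.46 and 0.40 (adjusted p = 8.68e-05 and 0.00134). EXOSC8 shares 18.9% of its exon bases with SUPT20H and EXOSC9 13.4% with CCNA2, both on the other strand. Of 39 other genes of the small subunit processome 3 were higher and 2 lower.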

How the data were processed

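The authors deposited raw counts of reads in the exons of each gene, whole numbers in 1 table per library, made by featureCounts per the file headers. STAR, SAMtools 1.9, featureCounts of Subread 1.6.3, DESeq2 and the build hg38 (GRCh38) are named per the submitters' processing notes, while strand use and the treatment of reads that fit several places are not given in the sources used here. Samples were grouped by their treatment labels. The members, the gene lists, the motifs and the heptamers were chosen with earlier results of these data known. Named genes were HMGB2, all members and, in each wider list, the 2 called genes with the smallest p.

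Counts were tested with edgeR 4.0.16 in R 4.3.3 (glmQLFit and glmQLFTest, TMM scaling, filterByExpr with smallest count 10 and smallest total 15, group as the only term, two-sided), with Benjamini-Hochberg adjustment over 15161 genes and calls under 0.05. CPM used TMM-scaled totals, except for marker genes (total counts). TPM was computed from counts and merged exon lengths. Intervals are 95% and come from the fit. The common biological coefficient of variation was 0.0507. As alternatives, DESeq2 1.42.0 and voom of limma 3.58.1 replaced edgeR, factors were set by RLE, by upper quartiles or by totals alone, genes were kept without a filter or from a mean of 1 CPM, the replicate number was added as a block, libraries were thinned to the smallest total, and each library was left out. The procedure was tested on simulated counts. The 2 libraries of a group differed by more than sampling noise (chi-square per degree of freedom 3.1 in HMGB2 siRNA and 5.68 in scramble). A gene with 0 counts could still have had up to 3 counts, 0.0942 to 0.147 CPM over the libraries, for counting error only.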

Additional observations from a re-analysis of the deposited data

How the results depend on the processing

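NOP58, NOLC1 and NIP7 kept their direction and their call under all 13 alternatives, and the 5 other calls did not. Over all members and alternatives, 421 values stayed on their side of the threshold, 29 lost the call and 5 gained it. No called value changed sign, while 18 of the 27 uncalled members, whose values lie near 0, did so in at least 1 alternative. Members called higher (main 7) numbered 2 with DESeq2, 3 with total counts, 3 with upper-quartile scaling and 2 to 12 with a library left out. Members called lower stayed at 1. The members' median log2 fold change (main 0.049) was 0.067 without the low-count filter, 0.001 with total counts, -0.002 with upper-quartile scaling and 0.046 to 0.109 with a library left out; the median of all genes was -0.053 with total counts and -0.057 with upper-quartile scaling, against -0.006. Wider pathway genes called higher (main 26) numbered 13 to 42 with a library left out, and those called lower (main 7) numbered 13 with total counts, 14 with upper-quartile scaling and 2 to 13 with a library left out. Over all genes, 1481 to 2904 were higher and 903 to 2291 lower with a library left out, against 2536 and 2135, and DESeq2 called 1284 lower. The causes of these shifts were not tested. The replicate block gave 5 members higher and 1 lower; same-numbered libraries did not deviate together (correlation -0.0172), so the numbers were not taken to pair them. Leaving out a library leaves 1 in its group, which is then assumed to vary like the other group. With 2 libraries in each group, small changes of the least abundant genes, RCL1 and PPAN, are the least certain.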

Other observations

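Several of the genes carry small nucleolar RNAs (snoRNAs) within their bounds. This held for 7 of 35 members (20%), against 221 of 15073 tested genes whose symbol does not begin with SNOR (1.47%). In the members 24 snoRNA genes were listed in all. NOP56 and GNL3 hold 5 each, NOP58 holds 4 (SNORD11, SNORD11B, SNORD70 and SNORD70B), NCL holds SNORA75, SNORD20 and SNORD82, WDR43 holds 3, and DKC1 and PPAN hold 2 each. The box C/D protein NOP58 thus lies around box C/D snoRNAs, NOP56 lies around 4 of that class and SNORA51, and DKC1, the box H/ACA enzyme, lies around SNORA36A and SNORA56, which are of its own class. The libraries were made from poly(A) RNA, and the listed snoRNAs had between 0 and 43 counts in a library, too few for a comparison of the groups. Of the 7 hosts NOP58 alone was called between the groups. Of all tested genes 30.8% were called, and 39.5% of those at least as abundant as the lowest member. No test was run against these shares.

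RRN3, the initiation factor that brings RNA polymerase I to the ribosomal DNA, had the largest fold of the wider pathway genes that passed the test and is named after its values were seen. It had 1.56 and 1.56 CPM in the libraries labelled HMGB2 siRNA, against 0.772 and 0.72 CPM in those labelled scramble (49 and 32 counts under the HMGB2 siRNA label, against 17 and 15 counts under the scramble label; 2.08-fold higher, 95% interval 1.22 to 3.55-fold; edgeR, adjusted p = 0.03). It was called in 8 of the 12 alternatives that tested it, with adjusted p from 0.0161 to 0.201, and the gene has another copy of its exons on 1 alternative sequence of the assembly.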
